A study of Mus musculus with 36 samples.

Results

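The crushed myelinated optic nerve (MON) was compared between 2 weeks (2W) and 3 days (3D) after injury, directly and without naive libraries. Of the 36 RNA-seq libraries of the series, 4 were chosen by their labels, 2 of MON at 2W after crush and 2 of MON at 3D after crush. The mice were C57BL/6 males and females of 2 to 4 months, and the nerve behind the eye was crushed on 1 side with self-closing forceps. The MON piece was the first one behind the zone where myelin begins. Its distance from the crush was not stated, so it may lie before, at or beyond the injury. Each library held RNA of MON pieces from 2 mice of 1 sex, pooled in equal amounts, so that each time had 1 female and 1 male pool (n = 2 pools) and a pool stood for both its mice and its sex. Naive MON of mice with no injury, again 1 female and 1 male pool, is given only as a level. The unmyelinated optic nerve (UON) and the retina of the crushed mice, 4 libraries each, served to show where MON differed. Cells were not sorted, so fewer cells of a type and less RNA per cell cannot be told apart in any value below.

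The optic nerve carries the axons of retinal ganglion cells, whose cell bodies lie in the retina. Behind the eye these axons are wrapped in myelin by oligodendrocytes, and astrocytes, microglia, blood vessels and a sheath of meninges surround them. After a crush the axons beyond the injury are cut off from their cell bodies and degenerate, glia and blood-borne cells divide or move in, and myelin debris is taken up and cleared over the following weeks. Myelin is rich in cholesterol, which cells of the nerve make from acetyl-CoA through the mevalonate pathway.

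The 4 libraries held 16326906 (female 2W), 35564594 (male 2W), 18184810 (female 3D) and 53350736 (male 3D) estimated counts, so the female pool was the shallower one at each time and sex and depth moved together. Xist and 4 Y chromosome genes matched the labelled sex in 4 of 4 libraries. Across genes, log2 CPM (counts scaled to the size of the library) correlated at 0.934 between the 2W pools, at 0.932 between the 3D pools and at 0.896 to 0.909 between pools of different times, a description of the libraries rather than a test. Myelin basic protein (Mbp) stood at 23913 and 20329 fragments per kilobase scaled for depth (FPKM) at 3D in the female and male pools and at 14395 and 17216 FPKM at 2W. The astrocyte filament gene Gfap stood at 3705 and 1957 FPKM at 3D and 3394 and 5400.1 FPKM at 2W. Of skeletal muscle markers, 8 of 12 were too low to be tested.

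The question of the comparison is which genes differed in level between the early and the late nerve after the same injury. Of 55487 genes, 18700 were expressed highly enough to be tested, and their median log2 fold change (2W minus 3D) was -0.01. The quasi-likelihood test of edgeR with time and sex as terms called 0 genes higher and 0 lower with its adjusted p below 0.05 and the log2 fold change past 1 or -1, a background of 0%. The fit left 1 residual degree of freedom, and the smallest adjusted p was 0.0597, shared by 3 genes, Nefl, Igf2 and Unc13c. At an unadjusted p under 0.05 it found 2102 genes (11.2% of those tested), 1093 higher (5.84%) and 1009 lower (5.4%). DESeq2, the tool of the study, was fitted to the same 4 libraries with the same terms and limits, and called 402 genes higher and 363 lower at 2W. Of the 18700 genes, these calls covered 398 higher (2.13%) and 361 lower (1.93%), and all of those moved the same way in the female and in the male pools. With sex as a term, a gap between the female and the male change counts as error. The shared direction is thus favoured by the calling and is no separate support. Of the called genes, 383 of the 398 and 350 of the 361 also had an unadjusted edgeR p under 0.05, on the same libraries. These DESeq2 counts depended on the sex term, without which they were 621 and 564, and on single libraries. Every DESeq2 count without 1 library, here and below, comes from a fit that also had no sex term. A shift from the counts with the sex term therefore cannot be credited to the library alone. Leaving out the male 2W pool lowered the higher genes to 141, leaving out the female 3D pool raised them to 959, and leaving out the male 3D pool lowered the lower genes to 215.

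In what follows, "rose" and "fell" are written only of genes called by DESeq2, and not one of these changes passed the edgeR adjustment. Fold changes are those of the edgeR fit, written with ± and their standard error (SE), and each adjusted p is named by its tool. Levels are CPM on one scale for the 4 crushed and the 2 naive MON libraries, with the female pool given before the male pool. Both 2W pools lay above both 3D pools in 24.1% of all genes and below them in 26.6%, the background for every count of 2W pools against 3D pools that did not overlap. For every count of genes that rose or fell in the fit to all 4 libraries, the background is 2.13% higher and 1.93% lower. Among all genes, DESeq2 called 141 higher and 314 lower without the male 2W pool, and 345 and 521 without the female 2W pool. It called 959 higher and 519 lower without the female 3D pool, and 282 and 215 without the male 3D pool. The count of a list without a library is to be read beside the calls of that same fit.

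**Figure D1:**
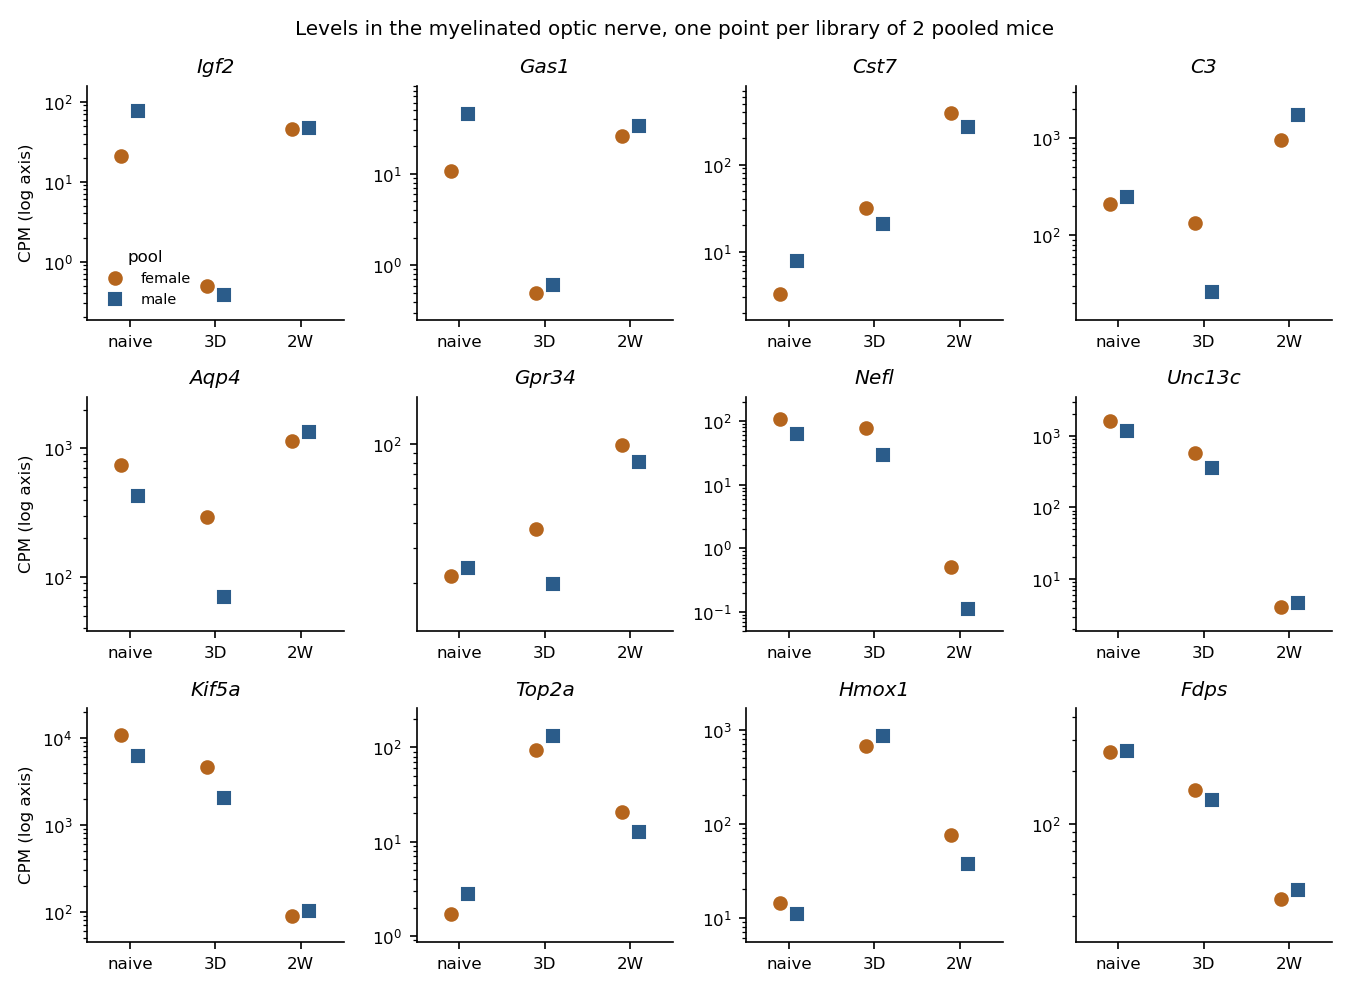
Levels of 12 genes in MON in CPM on log axes, 1 point for each library of 2 pooled mice (circles female, squares male), in naive nerve and at 3D and 2W after crush. Igf2 and Gas1 were near 0.5 CPM at 3D and near their naive levels at 2W, Nefl, Unc13c and Kif5a were far below their 3D and naive levels at 2W, and Top2a and Hmox1 were high at 3D in both pools.

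Genes of cell division fell more uniformly than any other list examined here. The list held 50 genes of the cell cycle and mitosis, all 50 were tested, 44 fell (background 1.93%) and 0 rose, and the median log2 fold change was -2.81 against -0.01 over all genes. In all 50 genes both 2W pools lay below both 3D pools. Leaving out 1 library at a time left between 33 and 47 of them called lower. The summed level of the list was 2259.8 and 2633 CPM at 3D and 681 and 486 CPM at 2W, beside 526 and 453 CPM in naive nerve. Gene by gene, both 2W pools still lay above both naive pools in 36 of 50 (background 28.2%) and below them in 1 (background 21%). The near return of the sum to naive thus did not hold for most members.

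Among regulators of the mitotic cycle, Cdk1, the kinase that drives entry into mitosis, was at 57.4 and 66.2 CPM at 3D and 11.4 and 6.19 CPM at 2W. Its log2 fold change was -2.88 ± 0.39, with a DESeq2 adjusted p of 6.8e-08. Its partner cyclin Ccnb1 was at 74.2 and 58.1 CPM at 3D and 10.7 and 4.57 CPM at 2W (log2 fold change -3.23 ± 0.36, DESeq2 adjusted p = 1.35e-10). In both genes the female 2W pool lay above the male 2W pool, and both 2W pools lay below both 3D pools. The S phase cyclin Ccna2 fell from 70.8 and 63.1 CPM to 6.37 and 3.78 CPM (log2 fold change -3.77 ± 0.33, DESeq2 adjusted p = 1.75e-15). Foxm1, a transcription factor of late cell cycle genes, fell from 24.4 and 22.1 CPM to 3.96 and 1.15 CPM (log2 fold change -3.43 ± 0.57, DESeq2 adjusted p = 3.7e-06).

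Genes that act on DNA fell as well. Top2a, the topoisomerase that untangles replicated chromosomes, was at 94.1 and 132 CPM at 3D and 20.6 and 12.7 CPM at 2W, with naive levels of 1.71 and 2.80 CPM. Its log2 fold change was -2.78 ± 0.39, with a DESeq2 adjusted p of 4.29e-08. The ribonucleotide reductase subunit Rrm2, which supplies deoxynucleotides, fell from 82.9 and 92.6 to 9.29 and 4.48 CPM (log2 fold change -3.76 ± 0.42, DESeq2 adjusted p = 3.74e-14). Cdc6, which loads the replicative helicase, had the lowest log2 fold change of the list, -4.11 ± 1.05, from 14.2 and 17.5 CPM at 3D to 2.64 and 0.252 CPM at 2W (DESeq2 adjusted p = 1.66e-05). In the spindle and its checkpoint, Aurka fell from 33.8 and 36.9 to 3.44 and 1.46 CPM (log2 fold change -3.98 ± 0.50, DESeq2 adjusted p = 2.8e-11). Knstrn, a spindle protein, fell from 35.5 and 35.8 to 4.36 and 3.56 CPM (log2 fold change -3.18 ± 0.34, DESeq2 adjusted p = 7.11e-09). The 6 list members that were not called were Ccne1, Gins2, Pcna, Mcm4, E2f1 and Anln, with log2 fold changes between -1.88 (Ccne1) and -0.51 (Anln). Most of these act at the start of DNA replication, and Anln is also a myelin gene.

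The promoters of late cell cycle genes are known for 2 short elements, the CCAAT box and the cell cycle homology region with the core TTTGAA. They are shown here for genes of the list, and whether they had a part in the fall was not tested. The 150 bases before the RefSeq start of 4 of these genes follow, on build GRCm38.p6, 5′ to 3′ on the strand of the gene, with CCAAT (or ATTGG, its reverse complement) and TTTGAA (or TTCAAA) in capitals. Cdk1 lies on the minus strand (window chr10:69352913-69353062), Ccnb2 on the minus strand (chr9:70421555-70421704), Top2a on the minus strand (chr11:99024190-99024339) and Ube2c on the plus strand (chr2:164769779-164769928).
Cdk1: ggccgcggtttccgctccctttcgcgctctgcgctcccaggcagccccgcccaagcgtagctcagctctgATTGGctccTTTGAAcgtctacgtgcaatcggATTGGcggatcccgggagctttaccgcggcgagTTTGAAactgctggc
Ccnb2: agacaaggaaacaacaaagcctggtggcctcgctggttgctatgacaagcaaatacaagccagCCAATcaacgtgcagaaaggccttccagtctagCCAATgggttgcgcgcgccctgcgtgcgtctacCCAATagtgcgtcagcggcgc
Top2a: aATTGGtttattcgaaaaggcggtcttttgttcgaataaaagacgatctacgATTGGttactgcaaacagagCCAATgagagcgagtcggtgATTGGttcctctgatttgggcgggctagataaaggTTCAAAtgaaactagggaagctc
Ube2c: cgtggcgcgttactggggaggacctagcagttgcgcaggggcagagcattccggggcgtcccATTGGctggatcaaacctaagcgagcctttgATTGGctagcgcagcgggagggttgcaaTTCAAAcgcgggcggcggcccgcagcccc

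The Cdk1 window held 2 CCAAT and 2 TTTGAA matches, that of Top2a 4 and 1, that of Ube2c 2 and 1, and that of Ccnb2 3 CCAAT matches and 0 of TTTGAA. Of the 50 list genes, 42 had at least 1 promoter in the RefSeq table, 45 promoters in all. In the 250 bases before the start, CCAAT was found on either strand in 34 of these 45 (75.6%), against 33.8% of all 32851 promoters, and at least 2 copies were found in 44.4% against 10.1%. TTTGAA was found in 28.9% against 16%, and both elements in 26.7% against 5.55%. Among the 16017 promoters of the genes tested, the shares were 35.1% for CCAAT, 12.1% for at least 2 copies, 11.3% for TTTGAA and 4.3% for both. The matches are a description of these letters in this window. They do not overlap one another in the 4 windows shown, and binding was not measured.

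Genes of cholesterol synthesis lay lower at 2W, and part of them fell. Of its 24 genes 23 were tested, 13 fell and 0 rose, the median log2 fold change was -1.44, and in 22 of 23 both 2W pools lay below both 3D pools (background 26.6%). Leaving out 1 library at a time left 9 to 15 called lower. The summed level was 4487 and 3295 CPM in naive nerve, 2815 and 1939 CPM at 3D and 765 and 1082 CPM at 2W, so that in contrast to the cell cycle list the 3D level lay below the naive level and the 2W level lower still.

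Hmgcs1, which condenses acetyl units at the head of the pathway, was at 542 and 352 CPM at 3D and 115 and 169 CPM at 2W (log2 fold change -1.65 ± 0.38, DESeq2 adjusted p = 0.00227). Of the enzymes that make isoprenoid units, Idi1 fell from 74.5 and 56.8 to 6.94 and 21.9 CPM (log2 fold change -2.38 ± 0.53, DESeq2 adjusted p = 0.000279). Fdps fell from 156 and 136 to 37.5 and 42.2 CPM, with the smallest SE of the group (log2 fold change -1.87 ± 0.25, DESeq2 adjusted p = 7.24e-05). Squalene synthase Fdft1 fell from 179 and 122 to 25.3 and 49.3 CPM (log2 fold change -2.06 ± 0.42, DESeq2 adjusted p = 0.000276). Insig1, the retention protein that holds back the sterol-regulated transcription factor, fell from 111 and 58.9 to 19.2 and 28.3 CPM (log2 fold change -1.79 ± 0.40, DESeq2 adjusted p = 0.00409).

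The 20 genes for cholesterol efflux, lipid droplets and targets of the sterol receptor LXR moved in both directions, 4 higher and 2 lower, with a median of 0.02. Lipoprotein lipase Lpl rose from 52.0 and 39.7 to 355 and 205 CPM (log2 fold change 2.57 ± 0.29, DESeq2 adjusted p = 6.81e-10), and its naive levels were 4.02 and 6.43 CPM. Apoc1, Apoc4 and the phospholipid transfer protein Pltp were the other genes that rose. The lipid droplet coat gene Plin2 fell from 553 and 1172 to 299 and 154 CPM (log2 fold change -1.91 ± 0.60, DESeq2 adjusted p = 0.0027), as did Apoc2. Apoc1, Apoc2 and Apoc4 lie in one cluster, so reads could be split between them by the counting. Without the male 3D pool 1 of the list rose and 0 fell, and without the female 2W pool 2 rose and 5 fell.

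Myelin genes lay lower at 2W. Of 20 genes of myelin and mature oligodendrocytes, 3 fell and 0 rose, the median log2 fold change was -0.82, and in 16 of 20 both 2W pools lay below both 3D pools. The number that fell was 0 without the female 2W pool and 6 without the female 3D pool. Mog, a protein of the outer myelin surface, was at 747 and 736 CPM at 3D and 328 and 358 CPM at 2W (log2 fold change -1.12 ± 0.32, DESeq2 adjusted p = 0.0368), beside 1187 and 1006 CPM in naive nerve. The gap junction gene Gjb1 fell from 287 and 453 to 122 and 170.4 CPM (log2 fold change -1.33 ± 0.29, DESeq2 adjusted p = 0.00821). The iron carrier Trf, made in this tissue by oligodendrocytes, fell from 15629 and 23327 to 5892 and 8247 CPM (log2 fold change -1.45 ± 0.51, DESeq2 adjusted p = 0.00153). Mbp itself was not called (log2 fold change -0.54 ± 0.60, DESeq2 adjusted p = 0.61). In the list of oligodendrocyte precursors and newly formed oligodendrocytes 1 of 18 genes rose, Gpr17, from 80.7 and 8.02 to 104 and 79.6 CPM (log2 fold change 1.83 ± 0.74, DESeq2 adjusted p = 0.0264), where the male 3D pool alone stood far below the other 3 crushed pools and without the male 2W, female 2W or male 3D pool the number that rose was 0.

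RNAs of axons and neurons included some of the largest falls. Of 22 genes 19 were tested, 7 fell and 0 rose, and the median log2 fold change was -0.93. Leaving out the female 3D pool left 4. Nefl, the light neurofilament subunit (ENSMUSG00000022055, chr14:68083863-68089095 on GRCm38), was at 105 and 62.3 CPM in naive nerve, 78.3 and 28.7 CPM at 3D and 0.516 and 0.112 CPM at 2W. Its log2 fold change was -7.53 ± 0.44, the lowest of the genes named by size, with an edgeR adjusted p of 0.0597 and a DESeq2 adjusted p of 4.35e-32. Nefh, the heavy subunit, went from 4.73 and 3.30 to 0 and 0.224 CPM (log2 fold change -5.13 ± 1.27, DESeq2 adjusted p = 0.002), and Nefm from 8.34 and 6.03 to 0.287 and 1.09 CPM (log2 fold change -3.51 ± 0.80, DESeq2 adjusted p = 0.00253). Kif5a, a neuronal kinesin of axonal transport, was at 10897 and 6189.9 CPM in naive nerve, 4599 and 2031 CPM at 3D and 90.1 and 103 CPM at 2W. Kif5a fell, with a change of -4.99 ± 0.56 on the log2 scale (edgeR adjusted p = 0.177, DESeq2 adjusted p = 2.5e-31). In all of these genes both 2W pools lay below both 3D pools, and the female 3D pool lay above the male 3D pool.

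Among the genes named by size, outside this list, were 4 that are known from neurons. Which cells of the nerve held their RNA was not tested. Unc13c (ENSMUSG00000062151, chr9:73479422-73968966), a vesicle priming factor, was at 1607 and 1172 CPM in naive nerve, 577 and 358 CPM at 3D and 4.01 and 4.60 CPM at 2W, a change of -6.72 ± 0.41 on the log2 scale (edgeR adjusted p = 0.0597, DESeq2 adjusted p = 2.48e-62). Rph3a, which binds the vesicle GTPase Rab3, fell from 81.1 and 34.3 to 0.631 and 0.757 CPM (log2 fold change -6.18 ± 0.49, edgeR adjusted p = 0.0888, DESeq2 adjusted p = 2.52e-28). Nrsn1, a vesicle membrane protein of neurons, fell from 112 and 40.6 to 2.06 and 1.79 CPM (log2 fold change -5.11 ± 0.42, edgeR adjusted p = 0.0888, DESeq2 adjusted p = 1.35e-24). The glutamate receptor auxiliary subunit Cacng3 fell from 17.0 and 11.2 to 0.229 and 1.01 CPM (log2 fold change -4.59 ± 0.79, DESeq2 adjusted p = 2.47e-07). Snap25, a membrane fusion protein within the list, fell from 33.2 and 14.9 to 1.72 and 3.56 CPM (log2 fold change -3.12 ± 0.63, DESeq2 adjusted p = 3.88e-05). Other neuronal genes did not pass, among them Gap43 (log2 fold change -1.37 ± 0.42), Stmn2 (-0.84 ± 0.29) and Thy1 (1.05 ± 0.68). In 2 genes both 2W pools lay higher, Thy1 at 2.64 and 2.89 CPM against 1.34 and 1.32 CPM at 3D and Rbpms at 14.6 and 9.84 CPM against 3.17 and 6.82 CPM.

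**Figure D2:**
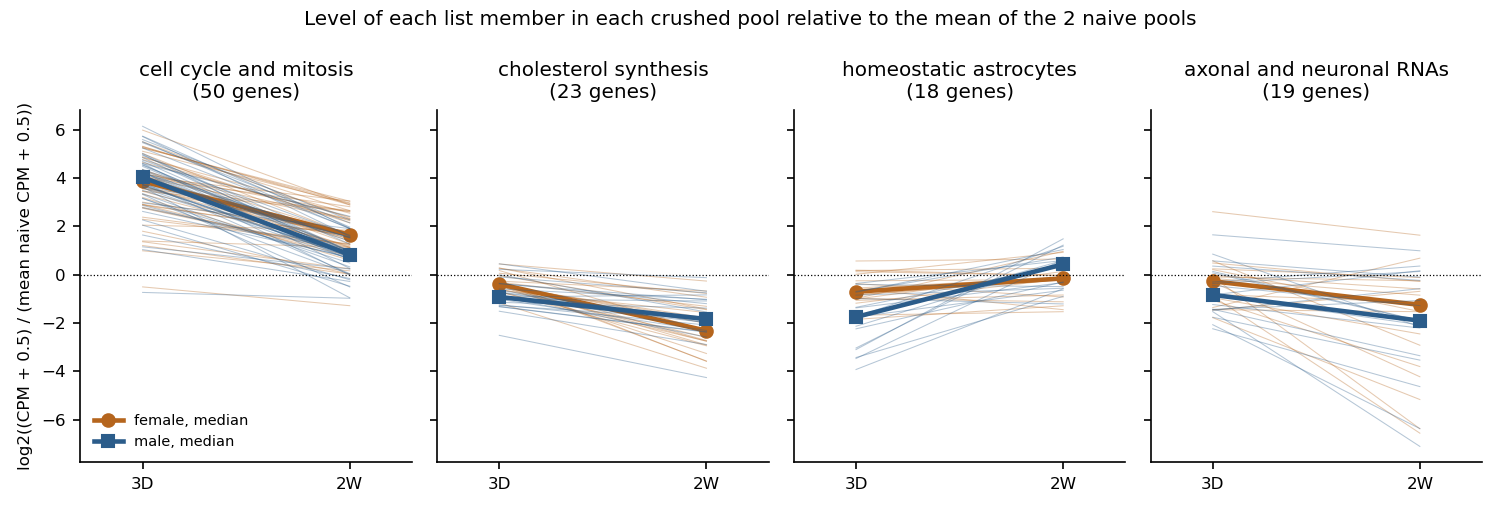
Level of each tested member of 4 gene lists in each crushed MON pool relative to the mean of the 2 naive pools, as log2((CPM + 0.5) / (naive CPM + 0.5)). Thin lines are genes, thick lines are list medians of the female (brown circles) and male (blue squares) pools. The cell cycle list lay above naive at 3D and nearer to it at 2W, the cholesterol list moved away from naive, and the astrocyte list was lowest in the male 3D pool.

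Homeostatic astrocyte genes lay higher at 2W, with a wide gap between the sexes. Of 18 genes 6 rose (background 2.13%) and 0 fell, with a median log2 fold change of 1.18. The median was 0.23 in the female pools and 1.81 in the male pools, and the summed level was 17275 and 8937 CPM at 3D and 18662 and 29781 CPM at 2W. The male 3D pool was thus the lowest of the crushed pools. The number that rose was 12 without the female 3D pool, 2 without the male 3D pool, 2 without the female 2W pool and 0 without the male 2W pool.

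Aqp4, the water channel of astrocyte endfeet, was at 738 and 424 CPM in naive nerve, 292 and 70.4 CPM at 3D and 1133 and 1353 CPM at 2W (log2 fold change 3.11 ± 0.65, DESeq2 adjusted p = 3.95e-08). Mlc1, its membrane neighbour at endfeet, rose from 665 and 107 to 1078 and 1825 CPM (log2 fold change 2.40 ± 0.92, DESeq2 adjusted p = 0.00152). The glutamate transporter Slc1a3 rose from 965 and 283 to 1809 and 2153 CPM (log2 fold change 1.92 ± 0.59, DESeq2 adjusted p = 0.00145). In these 3 genes both 2W pools lay above both 3D pools. Slc1a2, the other main glutamate transporter of astrocytes, rose from 119 and 56.6 to 239 and 219 CPM (log2 fold change 1.48 ± 0.32, DESeq2 adjusted p = 0.00499). The connexin Gja1 was at 279 and 65.4 CPM at 3D and 619 and 1575 CPM at 2W and was not called (log2 fold change 2.87 ± 0.93, DESeq2 adjusted p = 0.404). Gfap was at 10895 and 5915 CPM at 3D and 9332 and 15876 CPM at 2W, and the times overlapped (log2 fold change 0.60 ± 0.61, DESeq2 adjusted p = 0.627).

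The study used 3 lists of reactive astrocyte genes, called PAN-reactive, A1 and A2 after inflammatory and ischemic injury, some of whose genes it singled out in these samples. Of 14 PAN-reactive genes 3 rose and 0 fell (median log2 fold change 0.73), of 13 A1 genes 3 rose and 0 fell (median 0.78), and of 13 A2 genes 0 rose and 3 fell (median -0.81). The A1 genes that rose were C3, Serping1 and Fbln5, and their number was 6 without the female 3D pool, 2 without the male 3D pool, 1 without the female 2W pool and 0 without the male 2W pool. The A2 genes that fell were Clcf1, a cytokine of the CNTF family, from 43.1 and 27.7 to 9.69 and 8.97 CPM (log2 fold change -1.89 ± 0.32, DESeq2 adjusted p = 0.002), Tm4sf1 (-1.26) and Tgm1 (-1.66). Between 2 and 3 of them were called without any 1 library. Among the PAN-reactive genes the sphingosine receptor S1pr3 rose from 1159.7 and 482 to 1709 and 2851 CPM (log2 fold change 1.56 ± 0.59, DESeq2 adjusted p = 0.0171), as did the iron and copper handling genes Lcn2 and Cp. That number was 5 without the female 3D pool, 1 without either 2W pool and 0 without the male 3D pool.

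**Figure D3:**
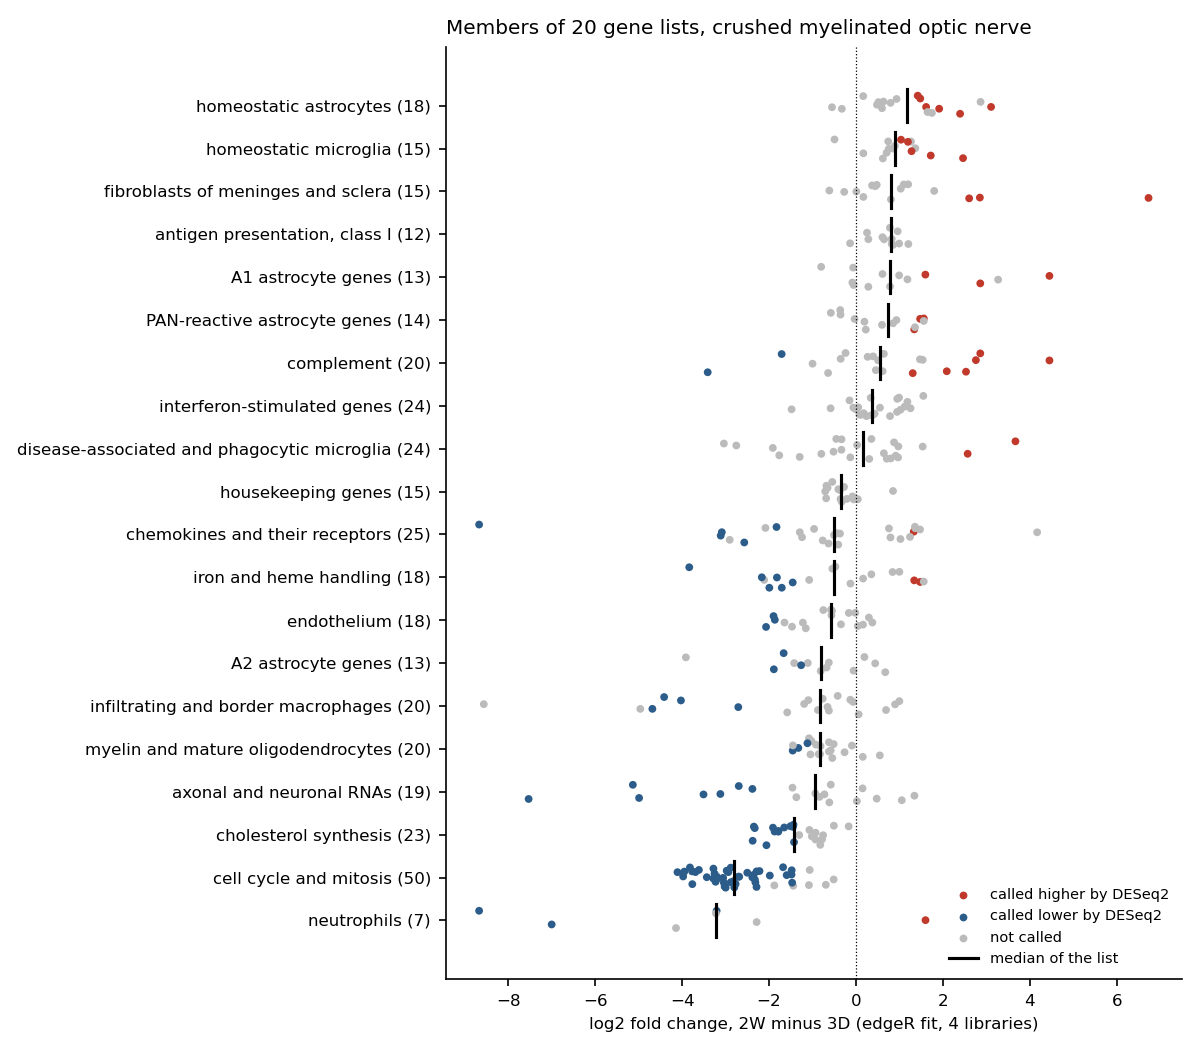
Members of 20 gene lists by their log2 fold change (2W minus 3D, edgeR fit to 4 libraries), ordered by list median (black bars), with the number tested in parentheses. Red points were called higher and blue points lower by DESeq2. Of the cell cycle list 44 of 50 points are blue, of the homeostatic astrocyte list 6 of 18 are red, and housekeeping genes have no called point and a median of -0.35.

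Complement genes moved in both directions. Of 20 tested, 6 rose and 2 fell, and the median log2 fold change was 0.56. C3, the component on which the activating routes converge, was at 212 and 250.2 CPM in naive nerve, 135 and 26.0 CPM at 3D and 963 and 1750.5 CPM at 2W (log2 fold change 4.45 ± 0.92, DESeq2 adjusted p = 0.0164). Of the proteases of the classical route, C2 rose from 6.56 and 3.59 to 36 and 30.0 CPM (log2 fold change 2.76 ± 0.35, DESeq2 adjusted p = 8.45e-07), and C1s1 and C1ra rose by 2.53 and 2.09 on the log2 scale. C1s1 and C1ra have close copies in the mouse genome, so their counts are uncertain. The inhibitor Serping1 rose from 173 and 49.1 to 516 and 869 CPM (log2 fold change 2.86 ± 0.69, DESeq2 adjusted p = 2.37e-06). The 2 genes that fell are known from myeloid cells. They were properdin Cfp, from 44.9 and 174 to 12.5 and 5.58 CPM (log2 fold change -3.41 ± 0.86, DESeq2 adjusted p = 1.47e-06), and the receptor C5ar1, from 135 and 281 to 94.8 and 37.7 CPM (log2 fold change -1.71 ± 0.65, DESeq2 adjusted p = 0.0249). The chains of C1q were not called, with log2 fold changes of 0.64 (C1qa), 0.51 (C1qb) and 0.61 (C1qc). The number that rose was 1 without the female 2W pool, and the number that fell was 0 without the male 2W pool.

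Microglia genes of the homeostatic state lay higher at 2W. Of 15 genes 5 rose and 0 fell, and the median log2 fold change was 0.90. That number was 1 without the female 2W or the male 3D pool, 2 without the male 2W pool and 7 without the female 3D pool. Csf1r, the receptor on which microglia depend, was at 506 and 435 CPM at 3D and 1006 and 922 CPM at 2W (log2 fold change 1.04 ± 0.33, DESeq2 adjusted p = 0.0472). Gpr34, a lysophospholipid receptor, rose from 37.4 and 19.7 to 99.0 and 81.1 CPM (log2 fold change 1.72 ± 0.27, DESeq2 adjusted p = 0.000934). The lectin Siglech, which marks microglia against most blood-derived macrophages, rose from 20.1 and 2.10 to 33.9 and 39.1 CPM (log2 fold change 2.46 ± 0.90, DESeq2 adjusted p = 0.0056), with the male 3D pool again lowest. P2ry12, the nucleotide receptor of resting microglia, was at 27.0 and 11.5 CPM at 3D and 34.1 and 31.5 CPM at 2W and was not called (log2 fold change 0.90 ± 0.37).

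Of 24 genes of disease-associated and phagocytic microglia, 2 rose (background 2.13%), 0 fell and the median was 0.17. Cst7, a cathepsin inhibitor of this state, rose from 31.3 and 20.6 to 391.8 and 267 CPM, from naive levels of 3.30 and 7.86 CPM (log2 fold change 3.67 ± 0.29, edgeR adjusted p = 0.0888, DESeq2 adjusted p = 3.92e-22). Lpl was the other gene that rose. Spp1 (osteopontin) was at 7445 and 16265 CPM at 3D and 4249.6 and 628 CPM at 2W, with the male 2W pool far below the rest, and was not called (log2 fold change -2.75 ± 1.19, DESeq2 adjusted p = 0.345). Trem2 was at 181 and 220.4 CPM at 3D and 515 and 300.4 CPM at 2W and was not called (log2 fold change 0.98 ± 0.39). Leaving out the male 2W pool gave 6 genes higher and 1 lower, leaving out the female 2W pool 2 and 5, leaving out the female 3D pool 4 and 2, and leaving out the male 3D pool 3 and 0.

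Markers of infiltrating and border macrophages fell in part. Of 22 genes 20 were tested, 4 fell and 0 rose, with a median of -0.82. The median was 0.11 in the female and -2.15 in the male pools, and the summed level overlapped between the times, at 5021 and 10422 CPM at 3D and 8442 and 2523 CPM at 2W, against 272 and 368 CPM in naive nerve. Lyz2, the lysozyme of myeloid cells, made up most of that sum, at 3555 and 7148 CPM at 3D and 7369 and 1929 CPM at 2W (log2 fold change -0.42 ± 0.89, DESeq2 adjusted p = 0.913). Thbs1, the adhesive matrix protein thrombospondin 1, fell from 266 and 975 to 36.5 and 15.7 CPM (log2 fold change -4.41 ± 0.90, DESeq2 adjusted p = 0.0164). F13a1, a clotting transglutaminase made by such macrophages, fell from 37.7 and 187 to 5.85 and 1.77 CPM (log2 fold change -4.68 ± 1.13, DESeq2 adjusted p = 0.0468). Platelet factor Pf4 and the lectin Clec4n were the other genes that fell. Arg1, the arginase of wound-type macrophages, was at 159 and 649 CPM at 3D and 3.15 and 0 CPM at 2W, but was not called (log2 fold change -8.56 ± 2.15, DESeq2 adjusted p = 0.0505). Without the female 2W pool 8 of these genes fell.

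Of 13 neutrophil markers 7 were expressed highly enough to be tested, 3 fell and 1 rose, and the median log2 fold change was -3.22. Mmp9, a gelatinase stored in neutrophil granules, was at 9.40 and 12 CPM at 3D and 0.229 and 0 CPM at 2W (log2 fold change -7.0 ± 1.26, DESeq2 adjusted p = 4.82e-08). Mmp8, the neutrophil collagenase, fell from 5.84 and 16.2 to 2.01 and 0.532 CPM (log2 fold change -3.21 ± 1.01, DESeq2 adjusted p = 0.00449). The chemokine receptor Cxcr2 was at 1.56 and 1.68 CPM at 3D and 0 in both 2W pools, so that its fold change cannot be given (DESeq2 adjusted p = 0.0123). Csf3r, which is also known from microglia, was the gene that rose, from 35.4 and 32.7 to 109 and 98.1 CPM (log2 fold change 1.6 ± 0.24, DESeq2 adjusted p = 0.00113). The 6 markers not tested were Camp, Elane, Ly6g, Mpo, Ngp and Retnlg. Without the male 3D pool 0 of the 3 fell, without the male 2W pool 1, and without the female 2W pool 5.

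Several chemokines that draw monocytes fell. Of 25 genes of chemokines and their receptors, 5 fell and 1 rose, with a median of -0.50. The list as a whole moved both ways. Its median was 0.30 in the female and -1.38 in the male pools. Both 2W pools lay above both 3D pools in 7 genes and below them in 9. Ccl2 was at 31.7 and 51.5 CPM at 3D and 10.4 and 2.10 CPM at 2W (log2 fold change -3.09 ± 0.84, DESeq2 adjusted p = 7.66e-05), and its neighbour Ccl7 fell from 16.2 and 42.8 to 5.79 and 1.57 CPM (log2 fold change -3.11 ± 0.92, DESeq2 adjusted p = 0.000337). The receptor Ccr1 and the chemokine Ccl12 fell too, with log2 fold changes of -2.57 and -1.83. Ccl3, made by microglia and macrophages, rose from 14.4 and 13.6 to 35.1 and 35.1 CPM (log2 fold change 1.33 ± 0.29, DESeq2 adjusted p = 0.0434). Without the male 3D pool 0 of these genes fell, and without the male 2W pool 3, and the number that rose was 3 without the female 3D pool. Among 25 genes of interleukin and gp130 cytokine signalling only Clcf1 fell and 0 rose, although 6 fell without the female 2W pool, and 5 fell and 3 rose without the female 3D pool. Il6 was at 1.89 and 0.554 CPM at 3D and 0 at 2W, and was not called in MON (DESeq2 adjusted p = 0.0533).

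Genes of iron and heme handling fell in several branches. Of 18 tested, 6 fell and 2 rose, with a median of -0.51. Hmox1, the heme oxygenase that degrades heme to iron and biliverdin, was at 14.3 and 10.8 CPM in naive nerve, 671 and 855 CPM at 3D and 76.3 and 37.0 CPM at 2W (log2 fold change -3.84 ± 0.50, edgeR adjusted p = 0.177, DESeq2 adjusted p = 4.95e-17). The globin genes Hba-a2, from 209.9 and 472 to 119 and 41.4 CPM (log2 fold change -2.17 ± 0.74, DESeq2 adjusted p = 0.00251), Hbb-bs (-1.99) and Hbb-bt (-1.82) fell, while Hba-a1 was not called (-2.11). These globin genes are known from red blood cells, and each pair is nearly identical, so the split within a pair is uncertain. The iron reductase Steap3 and Trf fell, and the ferroxidase Cp and the siderophore binder Lcn2 rose. The number that fell was 2 without the male 3D pool and 3 without the male 2W pool, and the number that rose was at most 1 without any 1 library.

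In the vessel wall, 3 of 18 endothelial genes fell and 0 rose, with a median of -0.57. Cldn5, the tight junction claudin of the blood-brain barrier, was at 57.1 and 73.4 CPM at 3D and 8.43 and 27.7 CPM at 2W, with naive levels of 23.6 and 28.8 CPM (log2 fold change -2.07 ± 0.39, DESeq2 adjusted p = 0.00129). Pecam1, an adhesion protein of all endothelium, fell from 31.0 and 45.0 to 6.42 and 15.5 CPM (log2 fold change -1.90 ± 0.33, DESeq2 adjusted p = 0.00199). Plvap, of the diaphragms of leaky vessels, fell from 32.9 and 33.8 to 12 and 7.01 CPM (log2 fold change -1.87 ± 0.37, DESeq2 adjusted p = 0.00405). The number was 1 without the female 2W or the male 3D pool and 5 without the male 2W pool.

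Among 15 tested genes of meningeal and scleral fibroblasts 3 rose and 0 fell, with a median of 0.81. Igf2 (ENSMUSG00000048583, chr7:142650766-142666816), an insulin-like growth factor made by meninges, had the largest log2 fold change upward of the genes named by size. It was at 21.2 and 75.8 CPM in naive nerve, 0.501 and 0.382 CPM at 3D and 46.2 and 46.5 CPM at 2W, so that both 3D pools lay far below all other pools (log2 fold change 6.73 ± 0.39, edgeR adjusted p = 0.0597, DESeq2 adjusted p = 8.17e-34). The transporter Slc6a13 of the meninges went from 3.34 and 2.37 to 12.1 and 33.2 CPM, with naive levels of 8.52 and 25.5 CPM (log2 fold change 2.85 ± 0.59, DESeq2 adjusted p = 0.000141). Fibromodulin, Fmod, rose from 76.9 and 18.2 to 209.6 and 248 CPM (log2 fold change 2.61 ± 0.60, DESeq2 adjusted p = 1.66e-05). The fibril collagen genes were not called, with log2 fold changes of 0.44 (Col1a1), 0.81 (Col1a2) and 0.48 (Col3a1). Without 1 library at a time 2 to 5 of the list rose, 5 of them without the male 3D pool.

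Several of the other genes named by size were lowest at 3D, as Igf2 was. Gas1, a membrane protein of hedgehog signalling, was at 10.8 and 45.4 CPM in naive nerve, 0.501 and 0.611 CPM at 3D and 26.1 and 33.1 CPM at 2W (log2 fold change 5.72 ± 0.41, edgeR adjusted p = 0.084, DESeq2 adjusted p = 2.18e-22). The Wnt receptor Fzd9 was at 75.3 and 46.4 CPM in naive nerve, 7.62 and 3.46 CPM at 3D and 57.1 and 93.6 CPM at 2W (log2 fold change 3.84 ± 0.52, DESeq2 adjusted p = 4.86e-12). Its relative Fzd10 rose from 5.73 and 1.39 to 32.6 and 48.2 CPM, above its naive levels of 10.9 and 14.5 CPM (log2 fold change 3.80 ± 0.71, DESeq2 adjusted p = 4.04e-08). The connexin Gjb2 rose from 0.223 and 1.78 to 24.8 and 13.8 CPM (log2 fold change 4.46 ± 1.01, DESeq2 adjusted p = 4.19e-07). Lag3, an immune checkpoint receptor, rose from 2.89 and 0.153 to 20.6 and 21.8 CPM (log2 fold change 4.76 ± 1.15, DESeq2 adjusted p = 1.59e-07). The others named upward, beside C3 and Cst7, were Itgbl1 (log2 fold change 3.68), the organic cation exporter Slc47a1 (3.50), Tmem132c (3.48) and the interferon-induced GTPase Gbp10 (3.46), which has close copies. Downward, the guanine deaminase Gda fell from 6.34 and 20.5 to 0.917 and 0.364 CPM (log2 fold change -4.30 ± 0.93, DESeq2 adjusted p = 7.64e-06) and Pclaf, a partner of the replication clamp, from 38.2 and 51.9 to 5.56 and 1.12 CPM (log2 fold change -4.11 ± 0.79, DESeq2 adjusted p = 4.45e-09).

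The naive level is given beside the called genes without a test, and the genes had been chosen on the same 3D and 2W values, which favours low 3D values among those that rose and high ones among those that fell. Over all 18700 genes both 3D pools lay above both naive pools in 30.4% and below them in 25.2%, and both 2W pools above them in 28.2% and below in 21%. Of the 398 genes that rose, 281 had both 3D pools below both naive pools, 23 had both above and 94 overlapped, and 235 had both 2W pools above the naive pools. Of the 361 genes that fell, 307 had both 3D pools above both naive pools, 30 had both below and 24 overlapped, and at 2W 159 were still above, 97 below and 105 overlapping. The naive pools did not enter the test of the times, while the 3D and 2W pools did.

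Some lists had no called member. Over all genes 11.2% had an unadjusted edgeR p under 0.05, 5.84% higher and 5.4% lower. Of 24 interferon-stimulated genes 0 rose and 0 fell by DESeq2 and by edgeR, with a median of 0.38 and 3 genes higher at an unadjusted edgeR p under 0.05, although 7 rose without the female 3D pool. The 12 genes of class I antigen presentation had a median of 0.80 with 0 called by either tool, 9 of them with both 2W pools above both 3D pools (background 24.1%) and 6 with an unadjusted edgeR p under 0.05. The 24 lysosomal genes had a median of 0.08 with 0 called by either tool and 0 at an unadjusted edgeR p under 0.05. The 15 housekeeping genes had 0 called by either tool, 1 at an unadjusted edgeR p under 0.05, and a median of -0.35, a shift in the direction of the lists that fell whose part in those results was not tested.

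A list of 35 tested genes was drawn from those the study named after crush, mainly for MON, although some, such as Cdkn2c and Ccnf, were named for UON. Since the study chose them on samples of this series, their count is no independent evidence. By DESeq2 4 of them rose, C3, Serping1, Fbln5 and A2m, and 14 fell, and without the male 2W pool 1 rose and 13 fell. Gpd1, the glycerol phosphate dehydrogenase that feeds lipid synthesis, was at 328 and 219 CPM in naive nerve, 867 and 2019 CPM at 3D and 123 and 138 CPM at 2W (log2 fold change -3.34 ± 0.46, DESeq2 adjusted p = 8.18e-15). A2m, a protease inhibitor, rose from 15.2 and 8.67 to 63.7 and 65.7 CPM (log2 fold change 2.5 ± 0.32, DESeq2 adjusted p = 8.96e-07). The cytokine receptor gene Il31ra was at 6.12 and 7.62 CPM at 3D and at 0 in both 2W pools. Dlk1, a Notch ligand relative, was at 4.67 and 2.5 CPM and then 0. Neither was called (DESeq2 adjusted p = 0.212 for Il31ra and 0.264 for Dlk1).

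**Figure D4:**
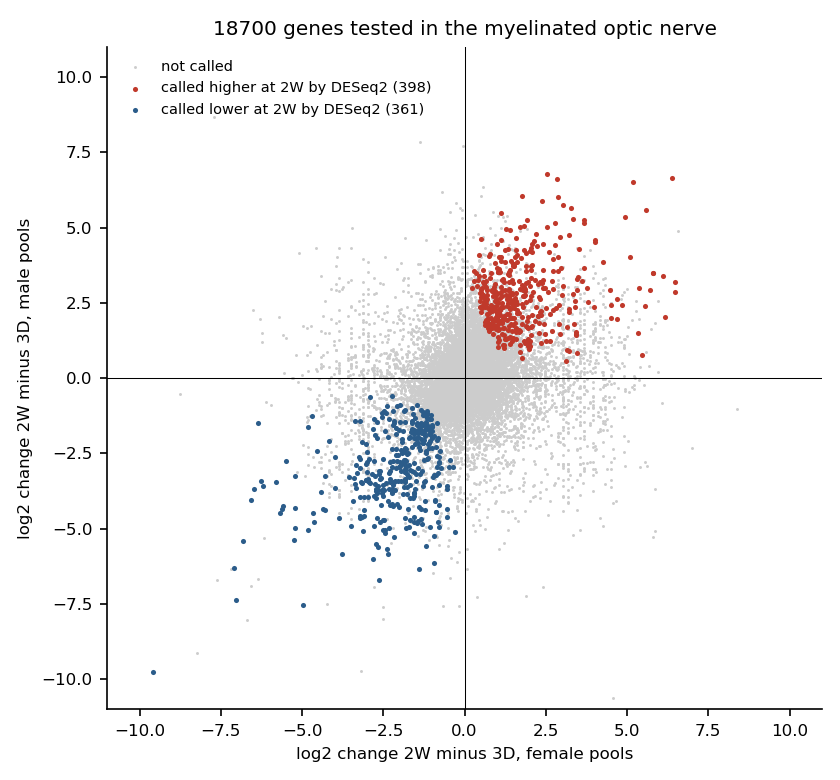
Log2 change from 3D to 2W of 18700 genes in the female pools (horizontal) and in the male pools (vertical). Genes called by DESeq2 (398 red, 361 blue) lie in the quadrants where both sexes moved the same way, which the calling itself favours. Many uncalled genes (grey) lie in the others.

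The female and the male pools did not move by the same amount. For the cell cycle list the median log2 change was -2.21 in the female and -3.43 in the male pools, and for cholesterol synthesis it was -1.84 and -1.06. Some lists of immune genes changed sign between the sexes, while homeostatic microglia (0.75 female, 1.04 male), neutrophils (-1.47, -4.77) and complement (0.93, 0.48) kept theirs. Among those that changed was class II antigen presentation (1.59 female, -1.23 male), where the class II chain H2-Aa was at 25.4 and 123 CPM at 3D and 87.7 and 42.3 CPM at 2W. With 1 pool per sex and time the difference between the sexes could not be tested, and sex, depth and the mice of a pool cannot be told apart.

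The change was then set beside that of the other tissues of the crushed mice. In UON the median log2 change of the cell cycle list was -3.62 and in the retina -0.03. For cholesterol synthesis the medians were -0.50 (UON) and -0.21 (retina), for homeostatic astrocytes they rounded to 0 in both tissues, and for axonal and neuronal RNAs -0.96 and -0.66. Whether a gene's change differed between the tissues was tested as the interaction of tissue and time over 8 libraries. Except where a replicate block is named, these fits ignored that the tissues came from the same mice.

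Against UON, edgeR called 0 of 22262 genes (0%), and 1 with the pool of mice as a replicate block, a pairing given by the shared mice. Without the female 2W pool of UON edgeR called 389, and at most 8 without any other library. DESeq2 called 201 of 20228 (0.994%). In the cell cycle list 3 of 50 genes differed by DESeq2, all with a smaller fall in MON, and of the cholesterol list 0. Igf2 changed by 0.31 in UON, a difference of 6.49 ± 0.61 on the log2 scale (edgeR adjusted p = 0.0849, DESeq2 adjusted p = 5.42e-16). Fmod and Slc6a13 of the fibroblast list differed the same way. Hmox1 changed by 0.52 in UON, a difference of -4.20 ± 0.71 (DESeq2 adjusted p = 2.74e-05), and 4 globin genes differed in the same direction, Hbb-bs by -4.04 ± 0.97 (DESeq2 adjusted p = 0.00726). C3 changed by 0.41 in UON, a difference of 3.86 ± 1.06 (DESeq2 adjusted p = 0.0211). Of the axonal list 2 genes differed, both with the lower change in MON, Nefl by -2.93 ± 0.62 (DESeq2 adjusted p = 0.0213) and Tubb3 by -2.27 ± 0.56 (DESeq2 adjusted p = 0.0406). For Kif5a the difference from UON was 1.5 ± 0.69 (DESeq2 adjusted p = 0.342), for Top2a 0.77 ± 0.81 (0.854 by DESeq2) and for Cst7 0.87 ± 1.0 (0.851 by DESeq2). These intervals are wide and do not show that the nerve regions acted alike.

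Against the retina, edgeR called 5 of 23810 genes (0.021%), and 44 with the pool of mice as a replicate block, and DESeq2 called 735 of 18543 (3.96%). Without the female 3D pool of MON edgeR called 166, and between 2 and 44 without any other library. The 5 genes were Unc13c, Igf2, Rph3a, Knstrn and the gene model Gm3226, the last outside the naming rule and given because the count is small. Unc13c changed by -0.22 in the retina, a difference of -6.53 ± 0.39 (edgeR adjusted p = 0.00736). On one scale for all crushed libraries it was at 610 and 396 CPM in MON at 3D, above 85.1 and 93.7 CPM in the retina. On that scale Rph3a was at 85.8 and 37.8 CPM in MON at 3D and at 72.6 and 70.0 CPM in the retina. Rph3a differed by -5.92 ± 0.49 (edgeR adjusted p = 0.0216), and Knstrn, which lay higher at 2W in the retina (1.56), by -4.74 ± 0.44 (edgeR adjusted p = 0.0369). Igf2 differed by 6.32 ± 0.42 (edgeR adjusted p = 0.00881) and Gm3226 by 6.83 ± 0.56 (edgeR adjusted p = 0.0216). By DESeq2, the change of 27 of the 50 cell cycle genes, 6 axonal genes and 5 cholesterol genes was lower in MON than in the retina, while that of 3 axonal genes, Rbpms, Sncg and Thy1, was higher, with Kif5a at a difference of -4.41 ± 0.51 (DESeq2 adjusted p = 2.84e-13).

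**Figure D5:**
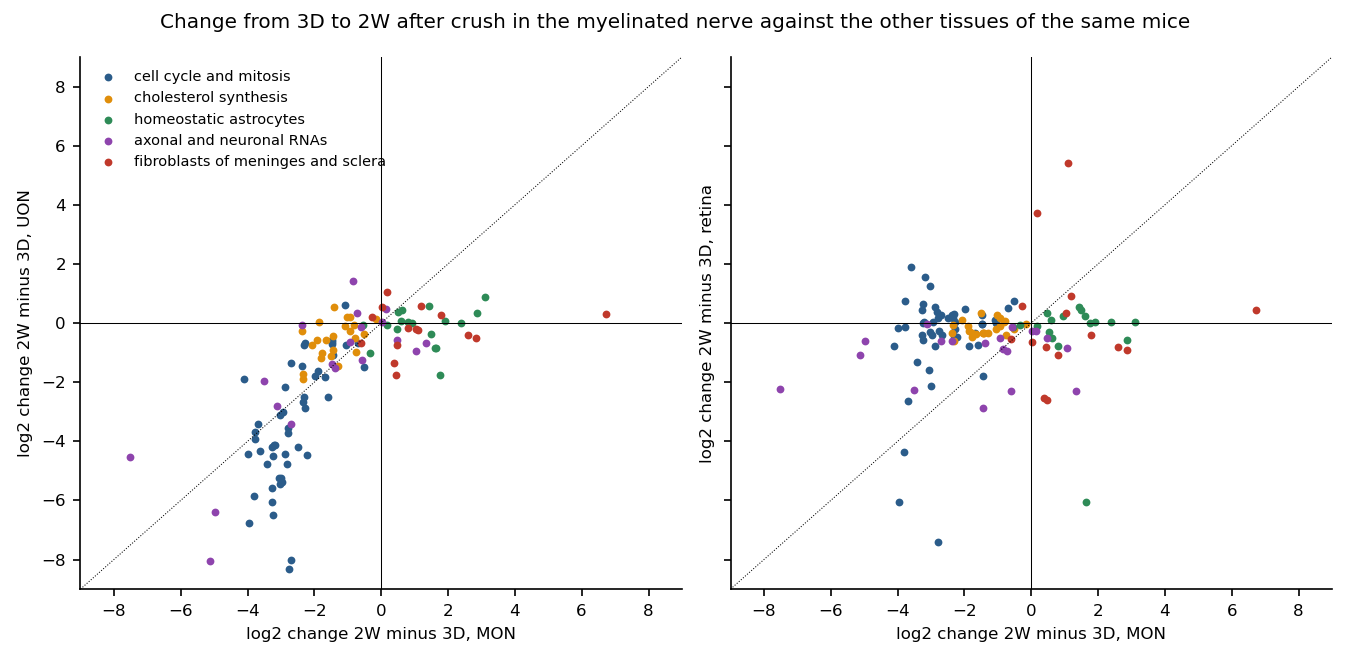
Log2 change from 3D to 2W of the members of 5 gene lists in MON (horizontal) against UON (left) and retina (right), with the dotted line marking equal change. Cell cycle genes lie low in both nerve regions and mostly near 0 in the retina, and Igf2 stands alone at the right, at 6.73 in MON, 0.31 in UON and 0.43 in the retina.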

How the data were processed

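RNA of crushed MON was sequenced as read pairs of 150 bases. The authors aligned reads with HISAT2 2.2.1 to GRCm38 and assembled transcripts with StringTie 1.3.0 on Gencode annotation. The estimated counts per gene were deposited by the authors without scaling for depth. A read pair may add about 4 counts, which is an inference, so depth in counts may exceed that in fragments. FPKM values, scaled by the authors for length and depth, were used for levels per length and in limma.

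Counts were tested as deposited with edgeR 4.0.16 (TMM, filterByExpr with a minimum count of 10, quasi-likelihood test, time and sex, Benjamini-Hochberg adjustment). It called no gene in MON, so genes were described by DESeq2 1.42.0, a choice made after the values were seen, as was applying to DESeq2 the naming rule (the 12 largest log2 fold changes each way among called genes with an official symbol, a mean of at least 5 CPM and 1 direction in both sexes, and list members). Other genes were named after their values were seen. The members and 40 gene lists (737 genes) were chosen with earlier results of these data known. Tissue differences were interactions over 8 libraries fitted as independent, although the tissues came from the same mice. Only the alternative with the pool of mice as a replicate block used that pairing. Scripts were tested on simulated data. With sex as a term, the error behind the p-values of the MON test is the gap between the female and the male change. It was estimated with help from the other genes. Alternatives were another scaling, filter, tool, sample set and leaving out libraries. Promoters were from RefSeq, GRCm38.p6. Some list members are not reported here by name.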

Additional observations from a re-analysis of the deposited data

Results flagged for a closer look

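The change from 3D to 2W differed between MON and the retina by the edgeR interaction test in 5 genes. The difference on the log2 scale was -6.53 ± 0.39 for Unc13c, 6.32 ± 0.42 for Igf2, 6.83 ± 0.56 for Gm3226, -5.92 ± 0.49 for Rph3a and -4.74 ± 0.44 for Knstrn, with edgeR adjusted p of 0.00736, 0.00881, 0.0216, 0.0216 and 0.0369.

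In 15 of 40 lists the median change had opposite signs in the female and the male pools, a difference that was not tested because each sex had 1 pool a time. The female median minus the male median was 2.82 for class II antigen presentation, 2.26 for infiltrating and border macrophages, 2.21 for T, NK and B lymphocytes and 1.67 for chemokines and their receptors. It was 1.04 for disease-associated and phagocytic microglia, 1.04 for skeletal muscle, 0.88 for collagens and matrix glycoproteins and 0.85 for lysosomal genes. It was 0.50 for cholesterol efflux, 0.28 for pericytes and smooth muscle, 0.21 for immediate early genes and 0.21 for oligodendrocyte precursors. It was -0.18 for TGF-beta and BMP signaling, -0.19 for p53 targets and -0.80 for heat shock, NRF2 targets and metallothioneins.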

How the results depend on the processing

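The edgeR counts of 0 higher and 0 lower genes in MON became 3 and 4 without the sex term, 3 and 12 with the naive libraries (6 in all), 15 and 20 with all 12 MON libraries, 51 and 102 with no filter on low counts, 4 and 10 with a mean of at least 1 CPM, and 4 and 8 with counts divided by 4. With limma they were 2 and 8 on log2(FPKM + 1) and 1 and 4 on log2(FPKM + 0.1), and with DESeq2 402 and 363 on 4 libraries and 597 and 440 on 6. Leaving out 1 library, with no sex term, gave 4 to 182 higher and 6 to 292 lower genes. DESeq2 size factors and dropping the fold limit left both at 0. The DESeq2 counts were 621 and 564 without the sex term, and 141 to 959 and 215 to 521 without 1 library, alternatives chosen after seeing the data. The DESeq2 fits without 1 library also had no sex term. The cause of these shifts was not tested. No paired analysis was possible because the pools of the times came from different mice. For tissue differences, the pool of mice as a replicate block moved the count from 0 to 1 (UON) and from 5 to 44 (retina), DESeq2 gave 201 and 735, and no filter gave 63 and 295. Leaving out 1 library gave 0 to 389 (UON) and 2 to 166 (retina). Of 1813 values of 114 named genes under alternatives, 8 reversed, in 3 genes that were not called by either tool. H2-Aa was at -0.20 without the sex term, -0.10 with 12 libraries, -0.18 with DESeq2 without the sex term, and between -0.90 and 1.38 without 1 library, below 0 without the female 2W or female 3D pool. Col3a1 ranged from -0.25 (without the female 2W pool) to 1.15, and Lyz2 from -1.46 to 0.46, above 0 without the male 2W or male 3D pool (0.42). The shallowest library, of 16326906 counts, limits what low genes can show.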

Other observations

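Further genes, chosen after their values were seen, moved between the times. The tubulin genes Tubb4a, of oligodendrocytes and neurons, and Tubb6 fell by DESeq2, from 3171 and 4237 to 719 and 848 CPM and from 293 and 403 to 87.6 and 105 CPM, with log2 fold changes of -2.23 ± 0.41 and -1.84 ± 0.28 and DESeq2 adjusted p of 4.29e-08 and 3.19e-05.

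Among 37 collagens and matrix glycoproteins 4 rose and 4 fell by DESeq2, with a median log2 fold change of 0.25, and without 1 library 2 to 6 rose and 2 to 4 fell. The fewest of either kind were called without the male 2W pool (2 rose) and the male 3D pool (2 fell). Lamb2, a laminin chain of basement membranes, rose from 173 and 65.4 to 304 and 516 CPM (log2 fold change 1.90 ± 0.57, DESeq2 adjusted p = 0.00294), and the provisional matrix protein Tnc fell from 168 and 234 to 28.5 and 7.23 CPM (log2 fold change -3.78 ± 0.70, DESeq2 adjusted p = 1.87e-10). Among 22 matrix proteases and inhibitors 2 rose and 3 fell. The macrophage elastase Mmp12 was at 9.29 and 12.4 CPM at 3D and 79.6 and 19.1 CPM at 2W (log2 fold change 1.85 ± 0.68, DESeq2 adjusted p = 0.0255). Without the male 3D pool 0 of these proteases and inhibitors rose and 0 fell.

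The other lists had few called members by DESeq2, several of them near the background of 2.13% higher and 1.93% lower over all genes. Among immediate early genes 1 of 22 rose and 3 fell, among TGF-beta and BMP genes 3 of 28 rose and 4 fell, among pericyte and smooth muscle genes 2 of 14 rose and 1 fell, and among p53 targets 1 of 18 rose. Without 1 library these counts ran from 0 to 1 higher and 1 to 2 lower, from 0 to 4 and 0 to 4, from 1 to 2 and 0 to 2, and from 0 to 1 and 0 to 1, with 0 lower without the male 3D pool in the TGF-beta and pericyte lists. In the stress response, heat shock and glycolysis lists 1 gene each fell, and of 9 Schwann cell genes 1 rose, and without 1 library the number lower ran from 0 to 2 in the stress response list and from 1 to 2 in the heat shock and glycolysis lists and the number of Schwann cell genes higher from 0 to 2. By DESeq2 and edgeR 0 were called among 27 genes of nodes and axon guidance, 16 of lymphocytes, 14 of photoreceptors, 10 of class II presentation and 4 of skeletal muscle. At an unadjusted edgeR p under 0.05 there were 7, 1, 1, 1 and 0, against 11.2% of all genes. All of these lists but skeletal muscle had called members in some DESeq2 fit without 1 library.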
